A study of Mus musculus with 2 samples.

Results

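The matrix metalloproteinases and their inhibitors were followed in leukocytes of AT3 tumors through 10 genes: the metalloproteinases Mmp2, Mmp9, Mmp12, Mmp13, Mmp14, Mmp19 and Mmp25 and the tissue inhibitors Timp1, Timp2 and Timp3. They were taken as a list, and all 10 were among the 32285 genes counted. Single-cell RNA libraries had been made from tumors of Pgd fl/fl mice (the genotype label WT) and of Pgd fl/fl LysMCre mice (the label 6PGDKO), harvested on day 30. AT3 is a mouse breast tumor cell line, Pgd encodes the pentose phosphate enzyme 6PGD, both groups carry the floxed Pgd alleles, and the Cre of the second group is driven from the Lyz2 (lysozyme M) locus of myeloid cells. Each library was a pool of 10 female mice aged 6 to 12 weeks, so that each genotype was 1 sample and no test between genotypes was possible. Every interval below is a 95% interval that covers counting error only, not the spread between mice or libraries.

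Metalloproteinases are zinc-dependent enzymes that cut collagens, elastin, proteoglycans and other proteins outside the cell. Most are made as inactive precursors, some are secreted and others, such as Mmp14 and Mmp25, stay on the cell surface. The tissue inhibitors are small proteins that bind the active site, and Timp2 also takes part in the activation of pro-Mmp2 by Mmp14. In tumors, macrophages, neutrophils, fibroblasts and the tumor cells themselves are known sources of these proteins.

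After a filter on detected genes and mitochondrial reads, 3565 of 3728 barcodes of the Pgd fl/fl library and 2798 of 3014 of the Pgd fl/fl LysMCre library were kept, with median depths of 5554 and 7926 UMIs (unique transcript counts) per cell, and no barcode was shared. Clusters made without the 10 genes gave 746 and 774 macrophages, 130 and 334 monocytes, 57 and 72 neutrophils, 202 and 282 dendritic cells, 83 and 115 innate lymphoid and NK cells, 1230 and 773 T cells, 566 and 35 B cells, and 0 and 16 mast cells, in that order of libraries. A cluster led by Cd8a and Cd8b1 with 479 and 303 cells was left unnamed because its leading gene, Ly6c2, was on the monocyte list. The labels name a CD45+ and a CD11b+ sort. The CD11b gene Itgam had a UMI in 0.813% and 1.42% of T cells, and a cluster led by Krt8 and Krt18 (72 and 94 cells) had a UMI of the CD45 gene Ptprc in only 31.9% of cells in each library. Pgd itself was at 104 and 29.7 counts per 1000000 UMIs (CPM) in macrophages, 79.3 and 30.6 in monocytes, 63.3 and 29 in neutrophils and 35.3 and 25.8 in dendritic cells. Outside the myeloid types it was lower in the Krt8-led cluster, at 56.2 and 32.8. It was at 52.4 and 35.8 in innate lymphoid and NK cells and 21.6 and 7.84 in B cells (1 UMI in the second library). In T cells it was at 26.3 and 31.2 and in the unnamed cluster at 23.8 and 30, higher in the second library. Except in the Krt8-led cluster, the intervals of these ratios outside the myeloid types included no difference. So did the interval in neutrophils, where Pgd had 9 and 5 UMIs. Lyz2 was at 3073 CPM in Pgd fl/fl and 25.4 CPM in Pgd fl/fl LysMCre macrophages. Whether the counted end of the Pgd transcript lies in the deleted part is not given in the sources used here.

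Mmp13 (chr9:7272514-7283333) and Mmp12 (chr9:7344397-7360461) were the members with the largest differences between the libraries in monocytes among those with 30 or more UMIs there, and they are neighbours. On mouse chromosome 9 of the GRCm38.p6 assembly they open a run of metalloproteinase genes in the order Mmp13, Mmp12, Mmp1b, Mmp3, Mmp1a, Mmp10, Mmp8, Mmp27. The other members lie apart: Mmp2 at chr8:92827290-92853421, Mmp9 at chr2:164940326-164955850, Mmp14 at chr14:54431598-54442456, Mmp19 at chr10:128790910-128800827, Mmp25 at chr17:23628315-23645269, Timp1 at chrX:20870166-20874737, Timp2 at chr11:118301061-118355411 and Timp3 at chr10:86300412-86349505. RefSeq start-site windows, 250 bases before to 50 bases after a start, were matched for 7 of the 10 members. Mmp2, Mmp9 and Mmp19 were not among them. The windows of Mmp13 (chr9:7272264-7272563) and of the second annotated start of Mmp12 (chr9:7347124-7347423), both on the plus strand, are shown 5′ to 3′ because only these members held the AP-1 letters TGANTCA on either strand. Capitals mark TGANTCA and TATAAA.
Mmp13: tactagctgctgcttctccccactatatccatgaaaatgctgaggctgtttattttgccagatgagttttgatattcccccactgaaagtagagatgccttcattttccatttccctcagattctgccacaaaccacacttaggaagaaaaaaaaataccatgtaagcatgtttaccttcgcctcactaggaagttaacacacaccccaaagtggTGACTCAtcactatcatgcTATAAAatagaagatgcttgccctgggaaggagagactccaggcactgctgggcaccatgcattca
Mmp12: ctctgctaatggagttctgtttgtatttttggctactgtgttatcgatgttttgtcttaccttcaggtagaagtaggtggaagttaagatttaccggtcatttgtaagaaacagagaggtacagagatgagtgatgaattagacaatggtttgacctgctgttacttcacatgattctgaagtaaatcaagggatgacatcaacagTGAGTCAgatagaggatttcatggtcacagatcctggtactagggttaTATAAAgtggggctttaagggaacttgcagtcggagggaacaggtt
The match began 35 bases before the start in Mmp13 and 44 bases before it in Mmp12. TATAAA, the TATA box letters, began 16 bases before the start in Mmp13 and 4 bases after it in Mmp12. The first annotated Mmp12 start (chr9:7344147-7344446) held neither. The windows of Mmp14, Mmp25, Timp1, Timp2 and Timp3 held no match to either set of letters. That of Mmp14 (chr14:54431348-54431647, plus strand) is printed as 1 example. Mmp14 was nearly level in macrophages of both libraries. In monocytes its log2 ratio (Pgd fl/fl LysMCre over Pgd fl/fl) was 0.34 (0.05 to 0.64). A link between these letters and the differences between libraries was not tested.
Mmp14: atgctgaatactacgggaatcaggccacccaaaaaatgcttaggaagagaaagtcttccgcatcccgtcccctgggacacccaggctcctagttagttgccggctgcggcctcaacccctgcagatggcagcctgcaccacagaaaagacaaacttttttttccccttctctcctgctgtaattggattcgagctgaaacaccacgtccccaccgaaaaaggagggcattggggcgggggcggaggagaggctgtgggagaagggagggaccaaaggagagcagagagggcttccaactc
Over 32851 windows of 27025 genes, 7.81% held TGANTCA and 13.6% held TATAAA. A match of letters is a description of these windows and not evidence of a bound factor.

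Macrophages held most of the UMIs of 6 members. They carried 91.6% of the 610 Mmp2 UMIs of the Pgd fl/fl library and 94.8% of the 889 of the Pgd fl/fl LysMCre library. For Mmp13 the shares were 95.7% of 1757 and 90.8% of 3580 UMIs, and for Mmp12 91.9% of 3037 and 82.5% of 4924. Mmp14 had 85.1% of 2231 and 72.8% of 2904 UMIs there, Timp2 73.5% of 5128 and 71.1% of 5471, and Mmp19 64.3% of 171 and 52.9% of 331. The other 4 members belonged mainly to other cells: Mmp25 to dendritic cells (64.5% of 532 and 69.5% of 790 UMIs), Mmp9 to neutrophils (74.2% of 89 and 65.3% of 101), and Timp1 (73.0% of 63 and 65.6% of 93) and Timp3 (97.1% of 170 and 99.2% of 256) to the Krt8-led cluster.

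**Figure D1:**
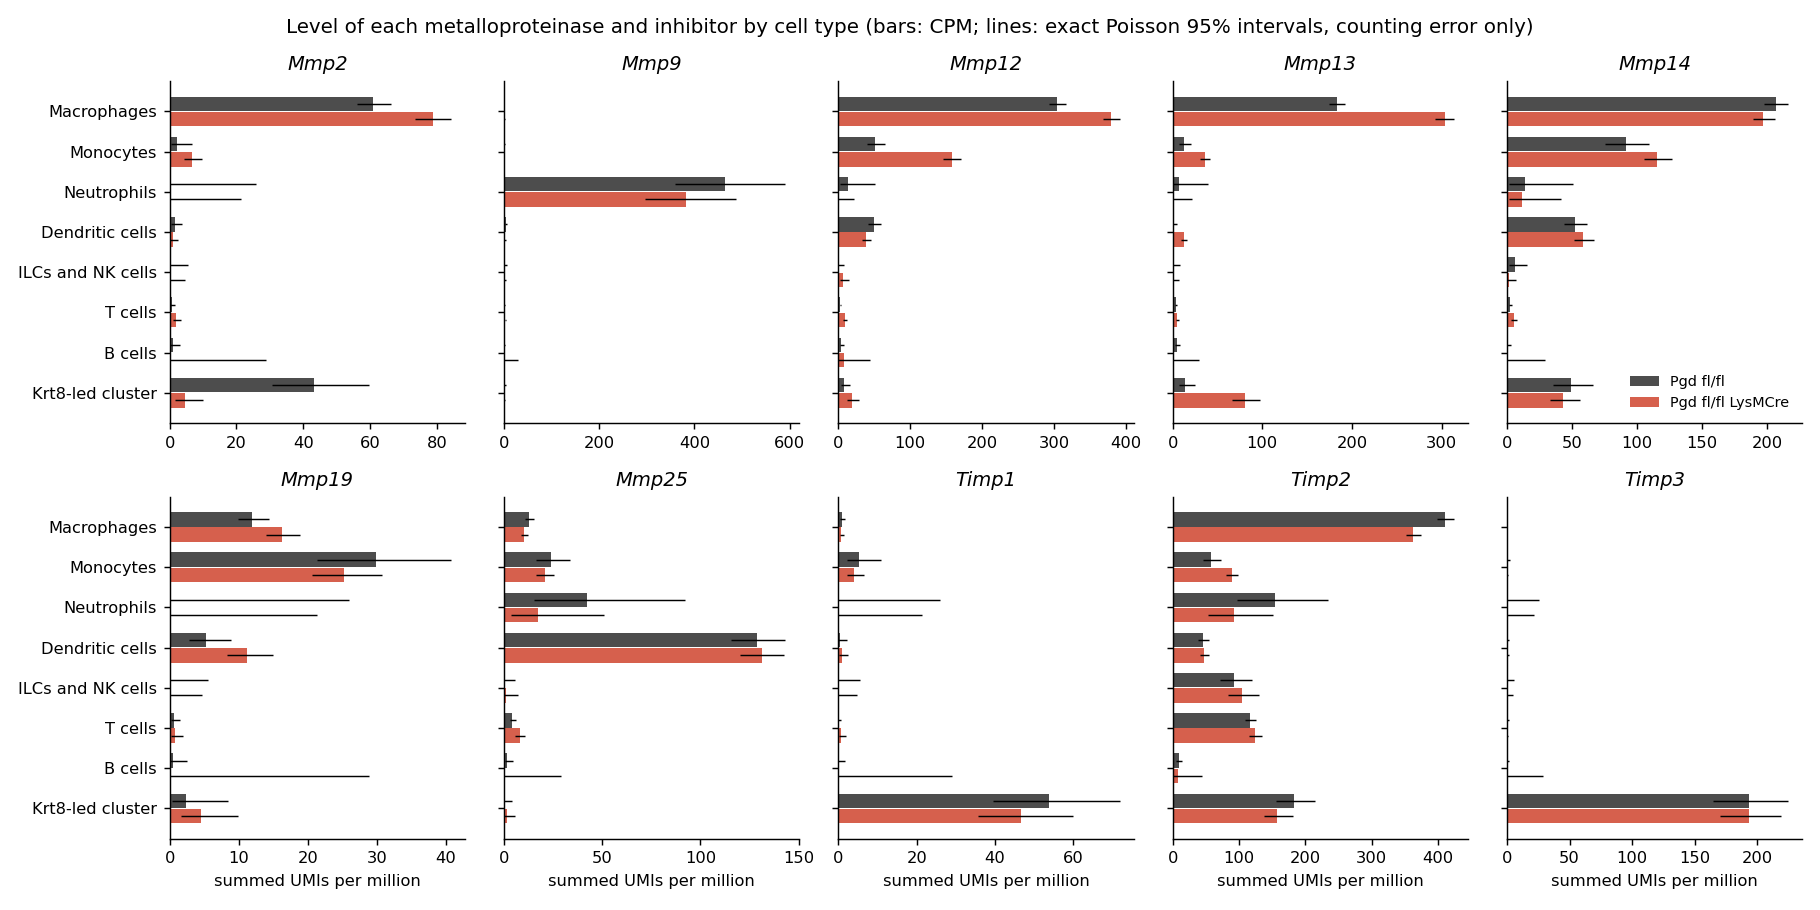
Level of each member in 8 cell types, in CPM, with grey bars for Pgd fl/fl, red bars for Pgd fl/fl LysMCre and lines for exact Poisson 95% intervals. Mmp2, Mmp12, Mmp13, Mmp14 and Timp2 reach their highest level in macrophages, Mmp9 in neutrophils, Mmp25 in dendritic cells and Timp3 in the Krt8-led cluster.

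In macrophages of the Pgd fl/fl LysMCre library, the collagenase Mmp13, the elastase Mmp12 and the gelatinase Mmp2 were each higher than in the Pgd fl/fl library, Mmp14 was at nearly the same level and Timp2 was slightly lower. None of these differences reached 2-fold. Of the 7 members with at least 30 UMIs in macrophages, 0 were 2-fold or more lower, where 0.875% of the 11311 genes tested were, and 0 were 2-fold or more higher, where 2.01% of genes were (1, Mmp19, without lymphocyte-led subclusters). The median log2 ratio (Pgd fl/fl LysMCre over Pgd fl/fl) of the 7 members was 0.32, against 0.07 over 11307 genes.

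Mmp13, a collagenase of fibrillar collagens, was at 183 CPM (175 to 192, 1681 UMIs) in Pgd fl/fl and 303 CPM (293 to 314, 3250 UMIs) in Pgd fl/fl LysMCre macrophages. The log2 ratio was 0.73 (0.64 to 0.81), the largest of the 7. More cells also carried it: 42.2% (38.7 to 45.9) against 50.6% (47.1 to 54.2). The shares were 24.1% and 32.6% once the 705 and 714 macrophages with at least 3000 UMIs had been thinned to 3000. Cells with fewer UMIs are left out of all thinned values.

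Mmp12, the macrophage elastase, was at 304 CPM (293 to 316, 2792 UMIs) and 379 CPM (367 to 391, 4062 UMIs), a log2 ratio of 0.32 (0.25 to 0.39). The share of macrophages with an Mmp12 UMI was almost equal, 32.8% (29.5 to 36.3) and 34.0% (30.6 to 37.4), and it was 23.0% and 23.1% after thinning. Thus the difference lay in the UMIs of the cells that carried it, and the 5 macrophages with the most Mmp12 held 19.0% of its Pgd fl/fl UMIs and 27.3% of its Pgd fl/fl LysMCre UMIs.

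Mmp2, a gelatinase that also acts on basement membrane collagen, was at 60.9 CPM (56.0 to 66.2) and 78.7 CPM (73.4 to 84.2), a log2 ratio of 0.37 (0.21 to 0.53). It was found in 36.3% and 43.4% of macrophages, and in 13.9% and 18.9% after thinning. Mmp14, the membrane-bound enzyme that activates pro-Mmp2, was at 207 CPM (198 to 217) and 197 CPM (189 to 206), a log2 ratio of -0.07 (-0.16 to 0.02), and in 74.5% and 75.5% of cells. Its interval included 0.

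Mmp19, a secreted enzyme of wide substrate range, was low, with 110 UMIs (12 CPM, 9.85 to 14.5) and 175 UMIs (16.3 CPM, 14 to 18.9), a log2 ratio of 0.45 (0.09 to 0.80). That ratio was 0.97 (0.46 to 1.5) without cells holding lymphocyte UMIs and 1.05 (0.65 to 1.46), past 2-fold, without lymphocyte-led subclusters, the latter added after seeing the data. Mmp25, which is anchored to the membrane by a lipid, had 118 UMIs (12.9 CPM) and 111 UMIs (10.4 CPM), a log2 ratio of -0.31 (-0.70 to 0.07), which was -0.82 (-1.48 to -0.19) without cells holding lymphocyte UMIs. Mmp9 had 2 UMIs in 1 Pgd fl/fl macrophage and 13 UMIs in 5 Pgd fl/fl LysMCre macrophages, too few for a ratio.

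Nearly all inhibitor UMIs of macrophages were of Timp2. It was at 411 CPM (398 to 424, 3771 UMIs) in Pgd fl/fl and 363 CPM (351 to 374, 3888 UMIs) in Pgd fl/fl LysMCre macrophages, a log2 ratio of -0.18 (-0.25 to -0.12), in 86.9% and 85.7% of cells. Timp1 had 8 and 8 UMIs. Timp3 had 0 UMIs in 746 and in 774 macrophages, which allows a share of up to 0.493% and 0.475% of cells with a UMI.

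Summed over the 7 metalloproteinases, macrophages held 781 CPM (763 to 799) in Pgd fl/fl and 986 CPM (967 to 1005) in Pgd fl/fl LysMCre, a log2 ratio of 0.34 (0.29 to 0.38). The summed inhibitors were at 412 CPM (399 to 425) and 364 CPM (352 to 375), a log2 ratio of -0.18 (-0.25 to -0.12). Hence each inhibitor UMI was matched by 1.89 metalloproteinase UMIs in Pgd fl/fl and by 2.71 in Pgd fl/fl LysMCre macrophages, a ratio of transcript counts and not of proteins. Lymphocyte RNA differed between these macrophages as well: the 7 T cell markers summed to 581.8 and 871 CPM, the 8 NK cell markers to 101 and 220 CPM and the 6 B cell markers to 576 and 114 CPM, with no marker of the 3 lists at 0. The 7 fibroblast markers summed to 0.436 CPM (4 at 0: Col3a1, Dcn, Lum, Pdgfra) and 1.31 CPM (3 at 0: Dcn, Lum, Pdgfra). Without cells that held a UMI of Cd3d, Cd3e, Cd3g, Trac, Cd79a, Cd79b, Ms4a1 or Ncr1, leaving 463 and 409 macrophages, the summed metalloproteinase ratio was 0.36 and the inhibitor ratio was -0.04 (-0.13 to 0.05).

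**Figure D2:**
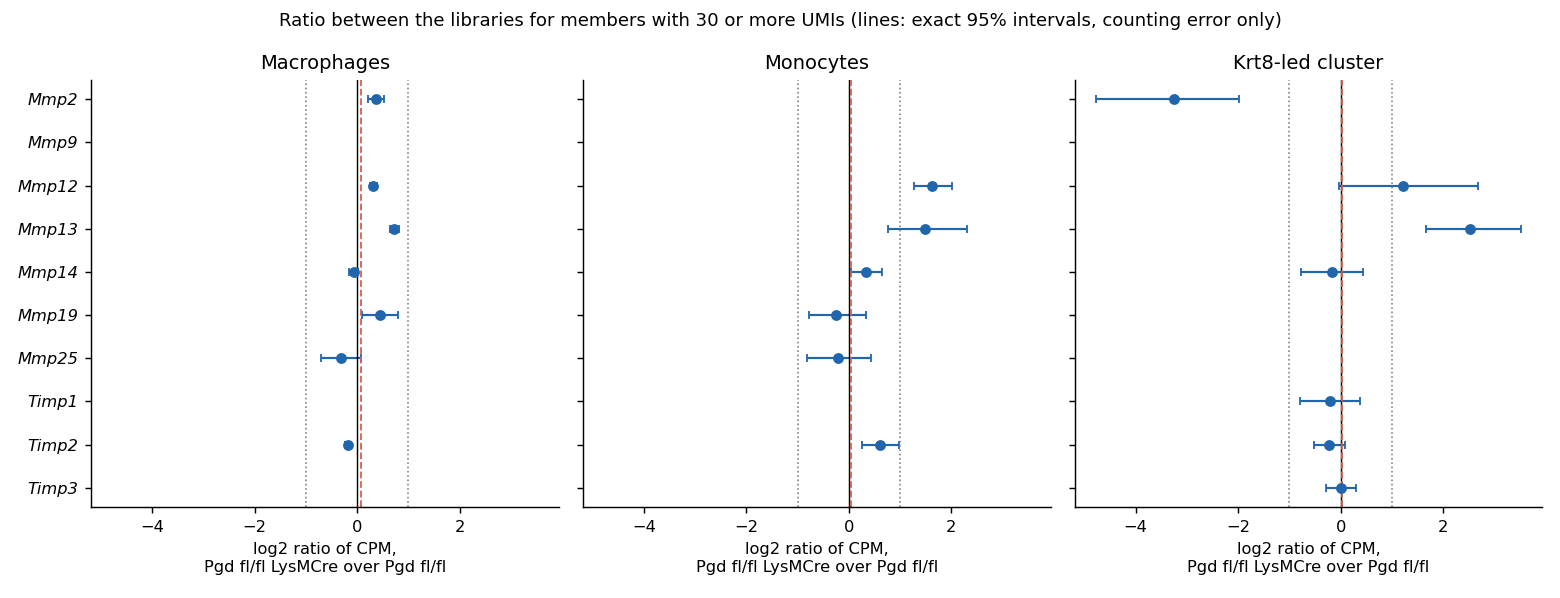
Log2 ratio of CPM, Pgd fl/fl LysMCre over Pgd fl/fl, for each member with 30 or more UMIs in macrophages, monocytes and the Krt8-led cluster. Lines are exact 95% intervals, dotted lines mark 2-fold and the dashed line is the median of all genes. Mmp12 and Mmp13 in monocytes sit at 1.63 and 1.49, past 2-fold, and Mmp2 in the Krt8-led cluster sits at -3.24.

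The members were spread unevenly over the macrophages. Cells of macrophages, monocytes, neutrophils, dendritic cells and mast cells were clustered again, also without the 10 genes, and the subclusters are called by leading genes. The subcluster led by Gpnmb and Atp6v0d2, with the widest margin for markers of lipid-associated macrophages, made up 6.97% and 7.49% of macrophages and had the highest Mmp12 of any subcluster, 1725 CPM (1292 UMIs) in Pgd fl/fl and 2208 CPM (1778 UMIs) in Pgd fl/fl LysMCre, a log2 ratio of 0.36 (0.25 to 0.46). Mmp13 was at 461 and 905 CPM there, a log2 ratio of 0.98 (0.79 to 1.16). The inhibitor ran the other way: Timp2 was at 860 and 595 CPM, a log2 ratio of -0.53 (-0.70 to -0.36), and the count of metalloproteinase UMIs per inhibitor UMI was 3.11 and 5.93. Mmp2 was also lower there, at 96.1 CPM (72 UMIs) and 41.0 CPM (33 UMIs), a log2 ratio of -1.23 (-1.87 to -0.62), against Mmp2 ratios above 0 in the other 6 subclusters that held 30 or more of its UMIs.

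In the largest macrophage subcluster, led by Hes1 and Tmem119, Mmp13 was at 123 and 335 CPM, a log2 ratio of 1.44 (1.24 to 1.64). Mmp12 was at 148 and 240 CPM, Mmp2 at 76.2 and 113 CPM, and Timp2 was at 435 and 435 CPM. The subcluster led by Tgfb3 and Vcam1 had Mmp13 at 240 and 401 CPM and Mmp2 at 58.3 and 120 CPM, a log2 ratio for Mmp2 of 1.05 (0.70 to 1.40). In both, the collagenase and the gelatinase were higher in the Pgd fl/fl LysMCre library while the inhibitor was nearly level.

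The cycling subcluster differed in part. Mmp2 was at 32.8 and 40.4 CPM there, a log2 ratio of 0.30 (-0.25 to 0.88), and Mmp13 was at 105 and 100 CPM, a log2 ratio of -0.06 (-0.38 to 0.26). Mmp12 was at 127 CPM (155 UMIs) and 70.4 CPM (157 UMIs), a log2 ratio of -0.85 (-1.18 to -0.52). Mmp14 was at 194 and 138 CPM and Timp2 at 229 and 165 CPM. The subcluster led by Retnla and Lyz1 had the highest Mmp19 level, 257 CPM in its 11 Pgd fl/fl cells and 248 CPM in its 43 Pgd fl/fl LysMCre cells. It held 18 of the 171 and 85 of the 331 Mmp19 UMIs, beside 35 and 37 in the Gpnmb and Atp6v0d2 subcluster and 32 and 85 in the one led by Plac8 and Chil3. This subcluster was 1.47% of the macrophages of the first library and 5.43% of those of the second, and its own Mmp19 level had a log2 ratio of -0.05 (-0.80 to 0.77).

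Counting subclusters with 30 or more UMIs of a member, Mmp13 was higher in Pgd fl/fl LysMCre in 8 of 9, with an interval above 0 in 6 and none below 0. Mmp12 was higher in 9 of 11, with an interval above 0 in 9 and below 0 in 2, the cycling subcluster and the one led by H2-M5 and Epcam. Mmp14 was higher in 8 of 12 and Timp2 in 6 of 13. Cells of 1 library are not replicates, so these counts describe how widely the differences were shared between kinds of cells in the same pair of libraries. T or B cell markers stood out more than those of any other cell type in 3 subclusters, led by Foxp3, Cd8a or Ighm, and also in the cycling subcluster, whose leading genes were those of cell division. The cycling subcluster held 9.12% and 10.2% of macrophages. The other 3 held 21.2% and 29.2% of macrophages and 18.5% and 28.1% of monocytes, and in the one led by Foxp3 Mmp12 was at 76.0 and 262 CPM.

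**Figure D3:**
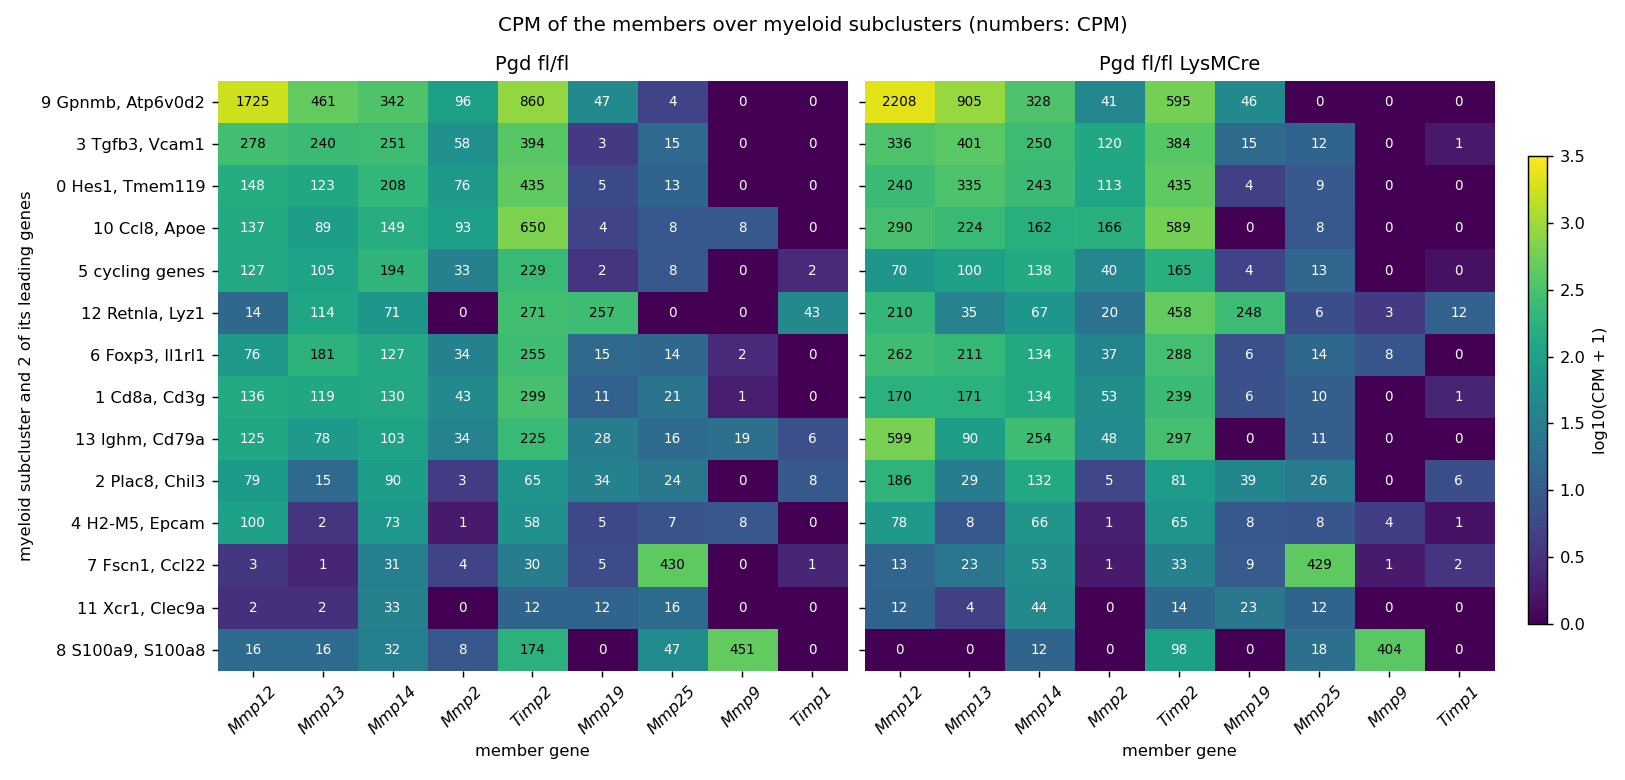
CPM of 9 members (Timp3 is left out) in 14 myeloid subclusters, each named by a pair of its leading genes or as cycling, with Pgd fl/fl on the left, Pgd fl/fl LysMCre on the right and color on a log10(CPM + 1) scale. Mmp12 peaks in the Gpnmb and Atp6v0d2 subcluster, Mmp19 in the Retnla and Lyz1 subcluster, Mmp25 in the Fscn1 and Ccl22 subcluster and Mmp9 in the S100a9 and S100a8 subcluster.

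In monocytes the log2 ratios reached further from 0, and Mmp12 and Mmp13 were both past 2-fold. Of 6 members with at least 30 UMIs, 2 were 2-fold or more higher in Pgd fl/fl LysMCre monocytes, where 3.19% of 8489 genes were, and 0 were 2-fold or more lower, where 1.12% of genes were. The median log2 ratio of the 6 was 0.48, against 0.03 over 8486 genes.

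Mmp12 was at 50.9 CPM (39.5 to 64.5, 68 UMIs) in Pgd fl/fl and 157 CPM (145 to 170, 616 UMIs) in Pgd fl/fl LysMCre monocytes, a log2 ratio of 1.63 (1.27 to 2.01). It was found in 14 of 130 cells (10.8%, 6.01 to 17.4) and 84 of 334 cells (25.1%, 20.6 to 30.2), and in 7.14% and 14.8% of cells after thinning. Few Pgd fl/fl cells carried the signal: the 5 highest, with 20, 15, 11, 5 and 4 UMIs, held 80.9% of it. These were 3.85% of the cells, and the highest 13 Pgd fl/fl LysMCre monocytes, 3.89% of the cells, held 62.3%, with 80 UMIs in the top cell. Without these 5 and 13 cells, 13 and 232 UMIs remained, a log2 ratio of 2.60 (1.79 to 3.53).

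Mmp13 was at 12.7 CPM (7.41 to 20.4, 17 UMIs) and 35.8 CPM (30.1 to 42.2, 140 UMIs), a log2 ratio of 1.49 (0.76 to 2.31), in 6.15% and 10.2% of cells. It too was held by few cells, since the 5 and the 13 highest cells had 82.4% and 80.7% of its UMIs, and 3 and 27 UMIs remained without them, a log2 ratio of 1.58 (-0.12 to 3.94). These matched removals were added after seeing the data. Timp2 was at 58.3 CPM (46.1 to 72.8) and 89.1 CPM (80.0 to 99.0), a log2 ratio of 0.61 (0.25 to 0.98), the opposite direction to that in macrophages. Mmp14 was at 91.3 CPM (75.8 to 109) and 116 CPM (105 to 127), a log2 ratio of 0.34 (0.05 to 0.64).

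Mmp19 and Mmp25 had intervals that included 0. Mmp19 was at 29.9 CPM (40 UMIs) and 25.3 CPM (99 UMIs), a log2 ratio of -0.24 (-0.79 to 0.33), and Mmp25 at 23.9 CPM (32 UMIs) and 20.7 CPM (81 UMIs), a log2 ratio of -0.21 (-0.82 to 0.43). Mmp2 had 3 and 26 UMIs and Timp1 had 7 and 16, below the minimum of 30 for a call, and Mmp9 and Timp3 had 0. The summed metalloproteinases were at 211 CPM (187 to 237) and 361 CPM (343 to 381), a log2 ratio of 0.78 (0.59 to 0.97). The summed inhibitors were at 63.6 CPM (50.8 to 78.6) and 93.2 CPM (83.9 to 103), a log2 ratio of 0.55 (0.21 to 0.91), which turned to -0.79 (-1.23 to -0.35) in cells gated on marker UMIs. Among those gated cells, 1 cell of the Krt8-led cluster held 38 of the 46 Pgd fl/fl Timp1 UMIs. Over the clustered monocytes the count of metalloproteinase UMIs per inhibitor UMI was 3.32 and 3.88.

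**Figure D4:**
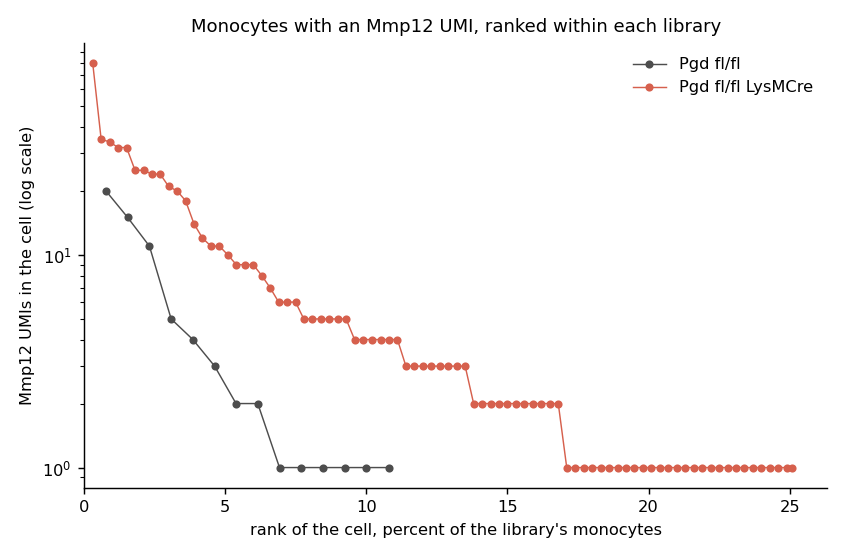
Mmp12 UMIs per cell (log scale) for each monocyte with at least 1, ranked within its library and placed by rank as a percent of that library's monocytes. The Pgd fl/fl cells (grey) end at 10.8% with a top cell of 20 UMIs, and the Pgd fl/fl LysMCre cells (red) end at 25.1% with a top cell of 80.

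The monocyte cluster also held cells with macrophage transcripts. Cells with 10 or more UMIs of the complement genes C1qa, C1qb and C1qc, which mark macrophages, made up 40.8% and 43.4% of it, a split chosen after seeing the data. Below 10 C1q UMIs, Mmp12 was at 21.7 CPM (14 UMIs, 77 cells) in Pgd fl/fl and 123 CPM (195 UMIs, 189 cells) in Pgd fl/fl LysMCre. At 10 or more, Mmp12 was at 78.1 CPM (54 UMIs, 53 cells) and 180 CPM (421 UMIs, 145 cells). The direction was thus the same on both sides of the split. Mmp13 was at 3.10 and 15.8 CPM below it and 21.7 and 49.3 CPM above it, and Timp2 at 35.6 and 43.6 CPM below it and 79.6 and 120 CPM above it. The 7 T cell markers summed to 460.0 CPM in Pgd fl/fl and 840.0 CPM in Pgd fl/fl LysMCre monocytes with none at 0, the 8 NK cell markers to 99.5 CPM (Ncr1 at 0) and 219.7 CPM (none at 0), and the 6 B cell markers to 224 and 91.7 CPM with none at 0. With the 3 lymphocyte-led subclusters left out, an alternative added after seeing the data, the summed metalloproteinase ratio in monocytes was 1.07 and the inhibitor ratio was 0.37 (-0.06 to 0.82). Without cells holding lymphocyte UMIs the inhibitor ratio was 0.41 (-0.13 to 0.97).

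B cells, which are not known as a source of Mmp12 or Mmp13, gave a measure of background UMIs. Whether these came from free RNA or from B cells caught with another cell was not tested. In the 566 B cells of Pgd fl/fl, Mmp12 had 9 UMIs (3.98 CPM, 1.59% of cells) and Mmp13 had 10 UMIs (4.42 CPM, 1.59% of cells) at a median depth of 3380 UMIs. Both levels were far below those of macrophages, whose median depth was 11873 UMIs. In Pgd fl/fl monocytes (median depth 8444 UMIs), Mmp13 at 12.7 CPM lay nearest to this background, and its interval (7.41 to 20.4) overlapped that of B cells (2.12 to 8.12). The Mmp13 level below 10 C1q UMIs in Pgd fl/fl, 3.10 CPM, was no higher than in B cells. The Pgd fl/fl LysMCre library held only 35 B cells, with 1 Mmp12 UMI and 0 Mmp13 UMIs. At a floor of 3 counts this allows up to 23.5 CPM of Mmp13.

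Neutrophils were the cells of Mmp9, the gelatinase that neutrophils store in granules. It was at 464 CPM (359 to 591, 66 UMIs) in 57 Pgd fl/fl neutrophils and 383 CPM (296 to 487, 66 UMIs) in 72 Pgd fl/fl LysMCre neutrophils, a log2 ratio of -0.28 (-0.79 to 0.24). The shares of cells with an Mmp9 UMI were 50.9% (37.3 to 64.4) and 52.8% (40.7 to 64.7). The next highest level in any cell type was 3.76 CPM in Pgd fl/fl dendritic cells. At this depth (median 2231 and 2113 UMIs per neutrophil) no difference in Mmp9 between the libraries was detectable. Timp2 had 22 UMIs (155 CPM) and 16 UMIs (92.8 CPM) in these cells.

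Dendritic cells were the cells of Mmp25. It was at 129 CPM (116 to 143, 343 UMIs) and 131 CPM (120 to 143, 549 UMIs), a log2 ratio of 0.03 (-0.17 to 0.22), in 35.6% and 33.7% of cells. Nearly all of it came from the cluster led by Fscn1, Ccl22 and Cacnb3, which are markers of mature dendritic cells: 324 UMIs (414 CPM) in 59 cells and 527 UMIs (429.6 CPM) in 84 cells. Mmp25 was named among the 10 leading genes of that cluster, although it had not been used to make it. Neutrophils, a known source of this enzyme in humans, had 6 Mmp25 UMIs (42.2 CPM, 15.5 to 91.9) and 3 UMIs (17.4 CPM, 3.59 to 50.8).

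Mmp12 in dendritic cells lay in another cluster, led by H2-M5, Epcam and Cd207, which held 128 UMIs (99.1 CPM) and 140 UMIs (70.6 CPM) of it, a log2 ratio of -0.49 (-0.85 to -0.13). Over all dendritic cells Mmp12 was at 49.6 and 38.9 CPM, a log2 ratio of -0.35 (-0.69 to -0.01), but 1 Pgd fl/fl cell held 76 of the 132 UMIs and 1 Pgd fl/fl LysMCre cell 46 of the 163. Without the highest cell of each library, left out after seeing the data, 56 UMIs (21.1 CPM) and 117 UMIs (28.1 CPM) remained, and the log2 ratio turned to 0.41 (-0.06 to 0.90). In the H2-M5 cluster it turned to 0.23 (-0.27 to 0.75). The share of dendritic cells with an Mmp12 UMI was 7.43% and 11.3%. Mmp13 had 5 and 52 UMIs, or 1.88 CPM (0.610 to 4.38) and 12.4 CPM (9.27 to 16.3), a log2 ratio of 2.73 (1.41 to 4.41). The Pgd fl/fl level was at that of B cells, and the 5 highest Pgd fl/fl LysMCre cells held 69.2% of the 52 UMIs. Mmp19 had 14 UMIs (5.26 CPM) and 47 UMIs (11.2 CPM), a log2 ratio of 1.09 (0.21 to 2.07). Mmp14 was at 52.2 and 58.7 CPM and Timp2 at 46.2 and 47.1 CPM, both with intervals that included 0.

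Summed over the named T cell clusters, which leave out the unnamed Cd8a-led cluster, no metalloproteinase was above 10 CPM. Single T cell clusters went higher on few UMIs, with Mmp25 at 39.7 CPM (15 UMIs) and 22.3 CPM (9 UMIs) in the cluster led by Il13 and Mmp12 at 25.6 CPM (26 UMIs) in the Pgd fl/fl LysMCre cells of the cluster led by Ccl1. T cells did express Timp2. It was at 117 CPM (109 to 125) and 124 CPM (115 to 134), in 34.6% and 44.1% of cells, against 8.83 CPM (5.40 to 13.6) in Pgd fl/fl B cells. It was highest in the cluster led by Foxp3, the factor of regulatory T cells, at 238 and 229 CPM, and was at 92.8 and 105 CPM in innate lymphoid and NK cells. The T cell ratio was 0.09 (-0.06 to 0.24). T cells were spread differently over clusters: the one led by Lef1, with Timp2 at 35.2 CPM in Pgd fl/fl, held 476 and 58 cells. The Timp2 log2 ratio was -0.05 (-0.27 to 0.17) in the cluster led by Foxp3 and -0.71 (-1.07 to -0.37) in the one led by Ccl1. Among named T cell clusters it was above 0 only in the one led by Ifit3, at 0.92 (-1.06 to 3.14) on 4 and 7 UMIs. The unnamed Cd8a-led cluster, which is not in the T cell values, had Timp2 at 30.9 and 34.8 CPM. Its log2 ratio was 0.17 (-0.31 to 0.65). Mmp12 in T cells had 19 UMIs in 19 cells of Pgd fl/fl and 48 UMIs in 19 cells of Pgd fl/fl LysMCre, levels of 2.76 and 9.14 CPM that were near those of B cells, and 1 cell held 22 of the 48 UMIs.

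By level, Timp2 in Pgd fl/fl was highest in macrophages (411 CPM), followed by the Krt8-led cluster (184 CPM), neutrophils (155 CPM), T cells (117 CPM), NK cells (92.8 CPM), monocytes (58.3 CPM), dendritic cells (46.2 CPM) and B cells (8.83 CPM). Counting intervals of neighbours overlapped from the Krt8-led cluster to neutrophils, from neutrophils to T cells, from T cells to NK cells, from NK cells to monocytes and from monocytes to dendritic cells. They did not overlap between macrophages and the next type or between dendritic cells, the unnamed Cd8a-led cluster (30.9 CPM) and B cells. Timp2 was therefore the member found most widely, and the one inhibitor above 10 CPM in any of the named leukocyte types.

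Timp1 and Timp3 were found mainly in the Krt8-led cluster, which holds cells with epithelial markers and some with fibroblast markers among the sorted cells. Timp3, an inhibitor that binds to the matrix, was at 193 CPM (165 to 225, 165 UMIs) in 72 cells and 194 CPM (171 to 219, 254 UMIs) in 94 cells, a log2 ratio of 0.00 (-0.28 to 0.30). It was carried by 17 and 29 cells, and the 5 highest held 81.8% and 47.2% of it. Timp1 was at 53.8 CPM (46 UMIs in 6 cells) and 46.5 CPM (61 UMIs in 10 cells), a log2 ratio of -0.21 (-0.79 to 0.37). Single cells held 38 and 24 of these UMIs. Without the highest cell of each library 8 and 37 UMIs remained, at 9.52 and 28.9 CPM, so the direction turned. Timp2 was at 184 CPM (156 to 215) and 158 CPM (137 to 181), in 56.9% and 48.9% of cells. With all cells of the cluster counted, the intervals of all 3 ratios included 0. The cells behind them differed, however: cells with 3 or more fibroblast marker UMIs (14 and 16 cells) held 4 of the 46 and 52 of the 61 Timp1 UMIs, and 67 of the 165 and 149 of the 254 Timp3 UMIs.

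The Krt8-led cluster was too uneven to compare Mmp12 and Mmp13, and its Mmp2 lay in few cells. Of its 7 members with 30 or more UMIs, 1 (Mmp2) was 2-fold or more lower in Pgd fl/fl LysMCre, where 2.03% of 7231 genes were, and 2 (Mmp12 and Mmp13) were 2-fold or more higher, where 4.08% of genes were. Each rested on a few cells. Mmp13 had 12 UMIs in the Pgd fl/fl cells against 106 in the Pgd fl/fl LysMCre cells, of which 93 were in 1 cell, and without the highest cell of each library it was at 3.62 and 9.94 CPM. That cell of 3519 UMIs had 0 UMIs of the 7 epithelial markers and 77 of the 7 fibroblast markers. Mmp12 had 7 and 25 UMIs, 21 of the latter in 1 cell that held 280 epithelial and 212 macrophage marker UMIs, and 4 and 4 UMIs remained without the highest cells. Mmp2 had 37 UMIs in 7 cells and 6 UMIs in 5 cells, 43.3 CPM (30.5 to 59.7) and 4.58 CPM (1.68 to 9.96), a log2 ratio of -3.24 (-4.78 to -1.99). Of the 37, 25 were in 4 cells that had 3 or more fibroblast marker UMIs. Without the highest cell of each library 24 and 4 Mmp2 UMIs remained, at 28.6 and 3.08 CPM, so the direction was the same. Mmp14 was at 49.2 and 43.5 CPM, and at 39 and 39 CPM without the highest cells. The 7 fibroblast markers summed to 549 CPM (none at 0) and 251 CPM (Col1a2 and Lum at 0) in this cluster, the 9 macrophage markers to 1283 and 1375 CPM and the 7 epithelial markers to 2238 and 3967 CPM. The part of these cells in the ratios was not tested.

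The likeness of members was measured as Pearson's r of log2(CPM + 5) over 25 points, namely the myeloid subclusters of each library with at least 30 cells, for 6173 genes. The points share libraries and depth, so r is given as a description. Mmp13 and Mmp14 were alike at 0.91, as were Mmp12 and Mmp14 at 0.91, Mmp2 and Mmp13 at 0.90 and Mmp2 and Timp2 at 0.90, while Mmp12 and Mmp13 were at 0.85. Mmp25 stood apart, with r between -0.63 and -0.43 to the other measured members. Outside the list, the genes most like Mmp12 were Lgals3 (0.92), Mfsd12 (0.92) and Tpp1 (0.91). Those most like Mmp13 were Slc37a2 (0.95), Gdf3 (0.94) and Stab1 (0.92). For Mmp2 they were Olfml3 (0.98), Ms4a7 (0.95) and Apoe (0.95), and for Mmp14 Lgals3bp (0.97), Abhd12 (0.93) and Slc29a3 (0.92). Timp2 was nearest to Trf (0.96), Adgre1 (0.95) and Selenop (0.95), and Mmp25 to Cacnb3 (0.90), Bcl2a1d (0.89) and Fscn1 (0.88).

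Cell type shares differed between the libraries as well: macrophages were 20.9% and 27.7% of cells and monocytes 3.65% and 11.9%. Over all kept cells, Mmp13 was at 65.2 CPM in Pgd fl/fl and 126 CPM in Pgd fl/fl LysMCre, a log2 ratio of 0.95 (0.87 to 1.03). With the Pgd fl/fl LysMCre levels in each type and the Pgd fl/fl share of UMIs per type, the ratio was 0.76, and with the shares alone exchanged it was 0.16. For Mmp12 the same values were 0.62 (0.55 to 0.69), 0.36 and 0.21, and for Mmp2 0.47 (0.32 to 0.62), 0.30 and 0.18. The differences of these 3 members were thus larger within cell types than through cell type shares.

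The reverse held for Mmp14, Mmp19, Mmp25, Timp1 and Timp3, and for Mmp9, whose ratio of 0.10 (-0.32 to 0.53) was 0.18 from shares alone. Mmp14 over all cells had a log2 ratio of 0.30 (0.22 to 0.38), with -0.02 at fixed shares and 0.29 from shares alone. Mmp25 had 0.49 (0.33 to 0.65), with 0.51 from shares alone, and Mmp19 had 0.88 (0.60 to 1.15), with 0.38 at fixed shares and 0.60 from shares alone. Timp2 was level, at 190 and 192 CPM. Within macrophages the same arithmetic over 11 subclusters gave 0.88 for Mmp13, 0.44 for Mmp12 and 0.56 for Mmp2 at fixed shares, each above its observed ratio, whereas the Mmp19 ratio of 0.45 became -0.04 at fixed shares and 0.62 from shares alone.

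**Figure D5:**
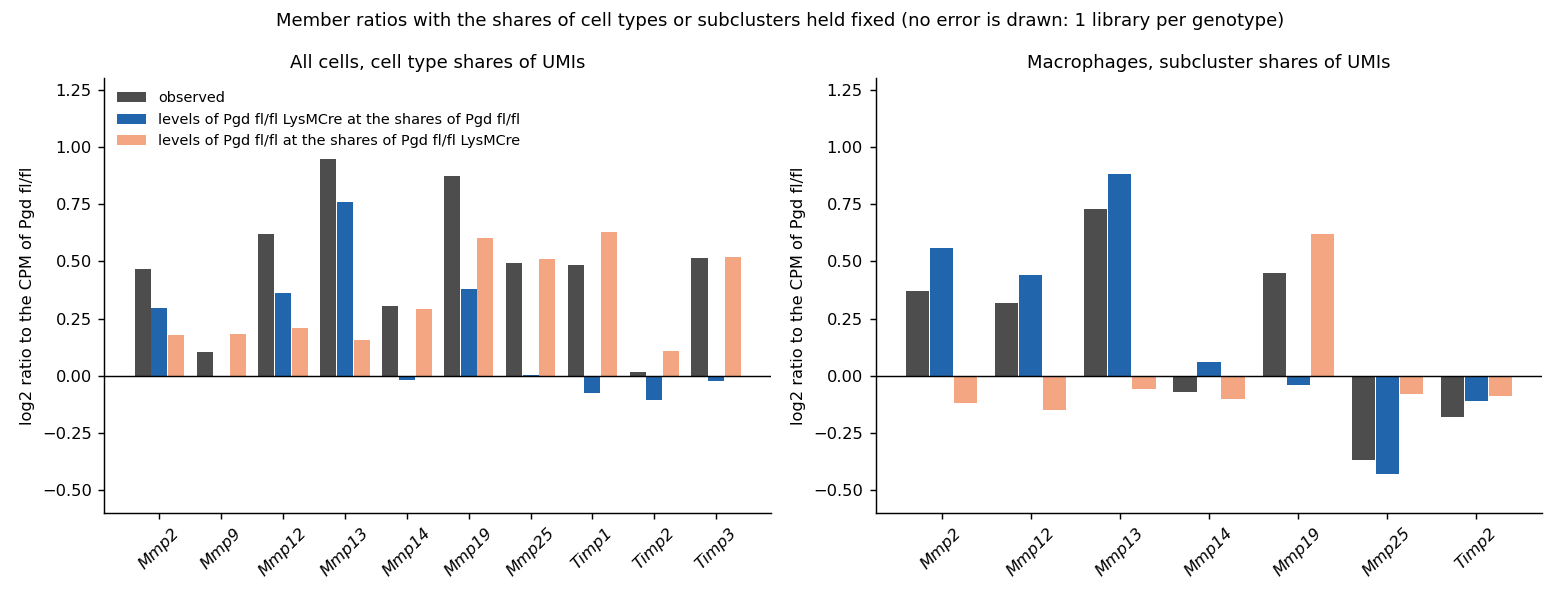
Log2 ratio to the Pgd fl/fl CPM for each member over all cells (left) and within macrophages (right), as observed (grey), with Pgd fl/fl LysMCre levels at Pgd fl/fl shares of UMIs (blue) and with Pgd fl/fl levels at Pgd fl/fl LysMCre shares (orange). No error is drawn, since there was 1 library per genotype, and the right side leaves out 1 Pgd fl/fl LysMCre macrophage whose subcluster held none of Pgd fl/fl, so that Mmp25 is at -0.37 there. Mmp13 keeps 0.76 of its 0.95 at fixed cell type shares, whereas Mmp14 goes from 0.30 to -0.02.

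A further 54 genes of pericellular proteolysis were listed: other metalloproteinases and inhibitors, adamalysins, the plasminogen system, proteins of activation and clearance, cathepsins and matrix proteins. In macrophages 25 of them had 30 or more UMIs, of which 3 were 2-fold or more higher in Pgd fl/fl LysMCre (2.01% of the 11311 genes tested were), 0 lower (0.875% of genes were) and 22 within 2-fold. The 3 were Fn1 (fibronectin), the stromelysin Mmp10 and the integrin subunit Itgb3. Fn1 was at 26.8 and 76.3 CPM, a log2 ratio of 1.51 (1.3 to 1.72), Mmp10 had 11 and 40 UMIs, a log2 ratio of 1.64 (0.65 to 2.75), and Itgb3 had 23 and 54 UMIs, a log2 ratio of 1.01 (0.28 to 1.78). Fn1 was also among the leading genes of the Retnla and Lyz1 subcluster, where the Mmp19 level was highest. Within 2-fold, the largest difference was that of Spp1 (osteopontin), at 152 and 284 CPM, a log2 ratio of 0.91 (0.81 to 1.00). The urokinase receptor Plaur was at 313 and 196 CPM, a log2 ratio of -0.68 (-0.76 to -0.60). The elastin-cutting cathepsin Ctss had a log2 ratio of -0.57 (-0.59 to -0.55), and the clearance receptor Lrp1 one of 0.65 (0.52 to 0.78).

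In monocytes 23 of the 54 had 30 or more UMIs, of which 1 was higher (3.19% of the 8489 genes tested were), 3 lower (1.12% of genes were) and 19 within 2-fold. Spp1 (osteopontin) was higher, at 71.1 and 145 CPM, a log2 ratio of 1.03 (0.71 to 1.36). Fn1 was lower, at 135 and 66.2 CPM, a log2 ratio of -1.03 (-1.31 to -0.75), the opposite direction to macrophages. The proteoglycan gene Vcan had 26 and 34 UMIs, a log2 ratio of -1.16 (-1.94 to -0.37), and the neutrophil collagenase Mmp8 had 13 and 18, a log2 ratio of -1.08 (-2.19 to 0.07) whose interval included 0. Vcan was on the list of monocyte markers used for naming. Of the 15 other metalloproteinases of the list, 12 in macrophages and 13 in monocytes had under 30 UMIs, and 1, Mmp1a, was not in the gene table. Spp1 was at a higher level in the Krt8-led cluster than in either type, 1259 and 2944 CPM, a log2 ratio of 1.22 (1.13 to 1.32). Whether RNA from that cluster contributed to Spp1 in macrophages and monocytes was not tested.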

How the data were processed

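The deposited matrices hold raw UMI counts per gene and cell, made by the authors with Cell Ranger 6.1.2 on mm10 per the labels, with 12 tag oligos beside the genes. Libraries carried tags 309 and 310 and were pooled for loading. Of the tag counts over all barcodes of each library, before the filter, 93.9% and 96.1% were of the library's own tag. Cells with 500 to 7500 detected genes and at most 15% mitochondrial counts were kept. Total counts were 27245625 (Pgd fl/fl) and 28827045 (Pgd fl/fl LysMCre). Both libraries were clustered together with Seurat 5.3.0 in R 4.3.3 (2000 variable genes without the 10 members, 30 components, 20 neighbours, resolution 0.8), giving 20 clusters and 16 myeloid subclusters, each named from a marker list where at least 3 markers were detected and its leading genes did not go against the name. The details of this naming were set after seeing the data. Scrublet (scanpy 1.11.5) called 0 of 6363 cells and so cannot be taken to have worked. No doublets were removed, and an alternative left out the 5% of cells with the highest scores. The study tested single cells, whereas counts here were summed per library and cell type, since cells of 1 library are not replicates.

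Levels are summed counts per 1000000 UMIs (CPM) with exact Poisson intervals, shares of cells have exact Clopper-Pearson intervals, and log2 ratios have exact conditional binomial intervals, all at 95% and for counting error only. A floor is 3 counts of the total. A gene was called at 2-fold with at least 30 UMIs over both libraries. Named genes were the 10 members, the 3 genes most like each member with 500 or more myeloid UMIs, listed proteolysis genes past 2-fold and Pgd; other listed genes were named after their values were seen. The 10 members, the lists and the tests were chosen with earlier results of these data known. The arithmetic of the ratios was checked on simulated independent Poisson counts. These hold no clumping of UMIs in single cells and no spread between libraries, so the check cannot speak to either. Alternatives were a minimum of 1000 genes, resolution 1.6, members among the variable genes, cells gated on marker UMIs, no cells with lymphocyte UMIs, no high Scrublet scores, thinning to 3000 UMIs, TMM scaling (edgeR 4.0.16), a mean over cells and no 5 top cells. Added after seeing the data were no lymphocyte-led subclusters and, for Mmp12, Mmp13 and members of the Krt8-led cluster, no highest cells of a type. Gene positions and start-site windows are from RefSeq on GRCm38.p6, the assembly of mm10, matched by symbol.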

Additional observations from a re-analysis of the deposited data

Results flagged for a closer look

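Members had opposite directions in 2 cell types, with at least 30 UMIs and an interval clear of 0 in each, for 3 members. None of these differences was tested, since each genotype was 1 library. Mmp2 was higher in macrophages of Pgd fl/fl LysMCre mice (log2 ratio 0.37) and lower in the Krt8-led cluster (-3.24), a difference of -3.61, where the second value rested on 37 UMIs in 7 cells against 6 UMIs in 5 cells. Mmp12 was lower in dendritic cells (-0.35, with an interval that ended at -0.01) and higher in macrophages (0.32), monocytes (1.63) and T cells (1.73). The differences were -0.67 from macrophages to dendritic cells, -1.98 from monocytes to dendritic cells and 2.07 from dendritic cells to T cells, where the T cell value rested on 19 and 48 UMIs, 22 of the latter in 1 cell, and was 0.93 (0.00 to 1.88) without the highest cell of each library. The dendritic cell value rested on 1 Pgd fl/fl cell with 76 of 132 UMIs, and without the highest cell of each library it was 0.41 (-0.06 to 0.90), so that the opposite direction was lost. Timp2 was lower in macrophages (-0.18) and higher in monocytes (0.61), a difference of 0.79. The macrophage value was -0.04 (-0.13 to 0.05) without cells holding lymphocyte UMIs, and the monocyte value was 0.45 (-0.01 to 0.93) without lymphocyte-led subclusters, so that an interval included 0 in each case.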

How the results depend on the processing

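No paired analysis was possible because there was 1 library per genotype, and for the same reason no replicate could be left out. The member counts, the summed ratios and the ratios of members with 30 or more UMIs in macrophages and monocytes were recomputed under 11 alternatives, and for each shift below the cause was not tested. Values in other cell types, in clusters and subclusters and over the wider gene list were not recomputed under them. The summed metalloproteinase log2 ratio of macrophages was 0.34 and ran from 0.27 (without the 5 top cells) to 0.39 (thinned cells), with 0.28 for gated cells and 0.28 under TMM scaling, which moved the median of all genes by -0.06. The summed inhibitor ratio of macrophages was -0.18, with -0.04 without cells holding lymphocyte UMIs and -0.10 as a mean over cells. In monocytes the summed metalloproteinase ratio of 0.78 was 0.54 with members among the variable genes, 1.02 without cells holding lymphocyte UMIs, 1.05 without high Scrublet scores and 1.07 without lymphocyte-led subclusters, and the summed inhibitor ratio of 0.55 was -0.79 for gated cells. That value turned on Timp1, with 46 and 5 UMIs. Of the 46, 39 lay in 5 gated cells of the Krt8-led cluster, 38 of them in 1 cell. Timp1 was the 1 member 2-fold lower in gated monocytes. The count of members 2-fold higher in macrophages was 1 without lymphocyte-led subclusters, where Mmp19 was at 1.05, against 0.97 without cells holding lymphocyte UMIs. In monocytes that count was 1 (Mmp12) for gated and 1 for thinned cells, where Mmp13 had 2 and 13 UMIs, and 2 and 23, under the minimum together. Among single members, Mmp12 in monocytes ran from 1.06 to 3.35 and Mmp13 from 1.13 to 2.79, where the highest values left out 5 cells of unequal monocyte numbers (2.60 and 1.58 when the same percent of cells was left out), and Mmp13 in macrophages from 0.56 to 0.92, Mmp12 from 0.16 to 0.45 and Mmp2 from 0.31 to 0.59. Mmp25 in macrophages ran from -0.82 to -0.21, with intervals below 0 without cells holding lymphocyte UMIs (-0.82), without high Scrublet scores (-0.66) and without the 5 top cells (-0.46). The inhibitor ratio of monocytes was 0.37 without lymphocyte-led subclusters and 0.41 without cells holding lymphocyte UMIs, both with intervals that included 0. Mmp14 in macrophages had the other sign in 3 of 11 alternatives, and Mmp19 and Mmp25 in monocytes each in 5 of 11. Small UMI totals limit the precision in neutrophils (142096 and 172415 UMIs) and Pgd fl/fl LysMCre B cells (127556 UMIs).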
